A study of Mus musculus with 16 samples.

Results

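White adipose tissue held 3227 open chromatin regions that were found in both feeding states and overlapped no peak of any other tissue of the series. They were chosen by the peak lists themselves. A region of the fed white adipose list, that is a unique chromosome, start and end, counted as a member if its q was under 0.01, if it overlapped by at least 1 bp a fasting white adipose region with q under 0.01, and if it overlapped no deposited peak in the 14 libraries of the other 7 tissues. Of the 156687 regions in the fed list, 95956 met the first 2 conditions, and the 3227 members were 3.36% of those. The other 92729 were overlapped by a peak of another tissue and serve below as the comparison set, called shared regions. Because the peak lists chose the members, their ranks, p and q, and their absence elsewhere, are given as descriptions without a test.

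The assay was ATAC-seq, in which the Tn5 transposase cuts accessible DNA and the cut sites are sequenced. Male C57BL/6 mice, for which the labels name no engineered allele or drug, either had free access to chow (Fed) or went without food for a day (Fasting). Liver, Muscle, Brown_Adipose, White_Adipose, Spleen, Heart, Lung and Kidney gave 1 library per state, 16 in all, each from tissue powder pooled over the mice of a group. There were no replicates, so no difference between states or tissues could be tested, and no depot is named for the white adipose.

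White adipose tissue stores triglyceride in large adipocytes and secretes hormones such as leptin and adiponectin. It also holds stromal progenitors, vessels, macrophages and a mesothelial cover. Open regions away from gene starts are often enhancers, which bind transcription factors and act on genes at a distance. The C/EBP factors and PPARG are the best known regulators of adipocyte identity.

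The white adipose label was compared with marker genes before the regions were described. All 25 genes of an adipocyte list had a region with q under 0.01 within 3000 bp of a start in both white adipose libraries. The same count was 24 in both brown adipose libraries and 21 to 24 elsewhere, so promoters of this list separated the tissues little. Over all coding genes the share with such a region was 69.2% to 77.4% by library. Single genes of the list differed in this, and Lep, which encodes leptin, was among the sharper. A rank here is the percentile by p within a deposited list, and 100 is the strongest. White adipose ranks of the Lep promoter were 89.5 (fed) and 88.4 (fasting). In brown adipose the Lep promoter ranked 95.1 in fed and 91.6 in fasting tissue, it stayed at or below 48.5 in kidney and spleen, and no such region was listed in the other tissues. The Retn promoter was listed outside the adipose tissues only in fasting spleen, at 38.1. Other genes of the list were not sharp. The Adipoq promoter ranked 86.0 (fed) and 88.8 (fasting) in white adipose, but 89.4 and 97.4 in liver and 91.2 and 90.4 in spleen. The Cebpa promoter ranked 90.5 or higher in every library.

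The fed white adipose library stood apart for epididymis genes, which the duct beside the male gonadal fat pad uses. A promoter region was listed for 23 of 28 epididymis list genes in fed white adipose, for 6 in fasting white adipose, and for 4 to 13 in the other libraries. These were 82.1% of the list in fed and 21.4% in fasting white adipose, beside 74.3% and 72.6% of all coding genes. In the other libraries 14.3% to 46.4% of the list had such a region, beside 69.2% to 77.4% of all coding genes. The fed share was thus near that of all coding genes, and the other shares were below it. Regions found in fed white adipose alone, with no deposited fasting peak and no peak of another tissue, numbered 15433 and were nearest to 21 of the 28 genes, or 75%, beside 30.7% of all coding genes. The 12481 regions found in fasting white adipose alone were nearest to 5 of them, or 17.9%, beside 27.1%. Members, which both states had to hold, were nearest to 4 of 28, or 14.3%, beside 10.3%. The part of epididymis chromatin in the member set was not tested beyond these counts. In pooled tissue, fewer cells of a type and less open chromatin per cell cannot be told apart.

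Windows of 6 members are printed here to show what the members look like: the 3 strongest members by mean of fed and fasting rank, the strongest member of the chains near Ankfn1 and near Lama1, and the strongest member nearest to an adipocyte list gene, Lep. Each is the forward strand of GRCm38 from 75 bp before to 75 bp after the fed summit, taken from the RefSeq genome sequence and named by the nearest protein-coding start. The windows were searched for 21 short motifs, and capitals mark a match.

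Cachd1, chr4:100692879-100693029: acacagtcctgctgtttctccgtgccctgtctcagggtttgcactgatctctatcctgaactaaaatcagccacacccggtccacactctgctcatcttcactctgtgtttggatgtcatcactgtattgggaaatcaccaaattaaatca
Glrx3, chr7:137507212-137507362: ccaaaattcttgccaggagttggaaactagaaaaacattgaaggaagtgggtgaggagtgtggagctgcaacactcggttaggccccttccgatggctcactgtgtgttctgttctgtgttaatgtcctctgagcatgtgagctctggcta
3110018I06Rik, chr12:107441205-107441355: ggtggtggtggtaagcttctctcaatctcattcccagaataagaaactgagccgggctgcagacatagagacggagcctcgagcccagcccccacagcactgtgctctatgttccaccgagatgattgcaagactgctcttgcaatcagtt
Ankfn1, chr11:89365955-89366105: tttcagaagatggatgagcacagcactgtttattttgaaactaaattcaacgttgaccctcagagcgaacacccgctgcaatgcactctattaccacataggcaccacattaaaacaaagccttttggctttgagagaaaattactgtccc
Lama1, chr17:67705485-67705635: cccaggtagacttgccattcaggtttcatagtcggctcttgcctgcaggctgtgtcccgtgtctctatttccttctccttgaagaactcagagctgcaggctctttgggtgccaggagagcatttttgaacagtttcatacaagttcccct
Lep, chr6:29086576-29086726: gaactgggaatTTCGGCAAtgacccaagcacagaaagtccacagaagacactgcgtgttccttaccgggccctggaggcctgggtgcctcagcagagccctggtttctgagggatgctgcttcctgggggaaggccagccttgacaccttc

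Of these 6 windows, 5 held none of the 21 motifs, and the Lep window held 1 match of the C/EBP letters TTGCNNAA on the reverse strand, centred 60 bp before the summit.

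The members lay in weak to middling parts of the white adipose lists. Their median rank was 35.9 in the fed list and 55.3 in the fasting list, against 64.1 and 73.8 for the shared regions. The median fold enrichment, which is the tags at the summit over the tags expected in the same library with 1 added to both, was 3.27 in fed and 3.32 in fasting tissue for members. Shared regions had a median fold of 4.37 in fed and 4.36 in fasting tissue. Behind a member stood a median of 44.0 tags at the fed summit and 26.0 at the fasting summit, while the library background was 10 tags when fed and 5.87 when fasting. The deeper fed library therefore gave the more exact values. Members were also narrower, with a median width of 229 bp against 352 bp, and 69.7% had a single summit against 43.3% of shared regions. A wide region is more easily touched by a peak of another tissue, so the rule itself favours narrow members. Private sets of the other tissues were narrower too, with medians of 126 to 244 bp against 209 to 399 bp for their remaining regions in both states.

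The share of private regions declined with strength across the regions open in both states. Among regions with a mean rank of at most 20, 10.3% were members. The share was 5.24% between mean ranks of 40 and 60 and 0.371% above 80. Only 64 members ranked over 80 in both lists, and 407 ranked over 60 in both. The highest single rank of any member was 93.8 in fed and 96.1 in fasting tissue.

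**Figure D1:**
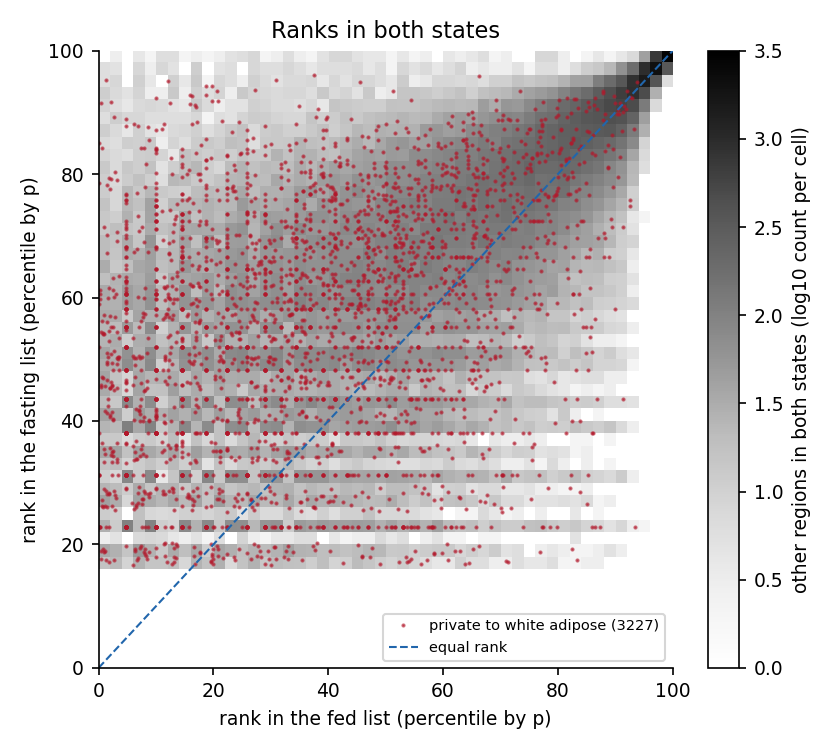
Each red point is a member, placed by its rank in the fed list (horizontal axis, percentile) and in the fasting list (vertical axis, percentile), over a grey map of the 92729 shared regions with the count per cell on a log10 scale. Members spread widely around and mostly above the line of equal rank, no fasting rank is under 16.7, and few reach the upper right corner where shared regions are densest.

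A member strong in one state was often not strong in the other. Across members the Spearman correlation of fed and fasting rank was 0.309, against 0.738 across shared regions. These correlations run across regions of the same pair of libraries and describe them only. Members were also the weaker set, with fed rank quartiles of 18.7 and 54.4 against 39.1 and 84.0 for shared regions. Their median of fasting summit tags was 26.0 against 41.0. Correlations at matched strength were not computed, so the contrast does not show that members varied more between the states. The median rank difference, fasting minus fed, was 17.1 points for members (95% order-statistic interval 16.4 to 18.1) and 5.23 for shared regions, and 76.8% of members ranked higher in the fasting list. This interval covers counting error over regions of the same pair of libraries. It does not measure a difference between the states. A difference over 25 points was found in the fasting direction for 1216 members and in the fed direction for 166. The fed list ended at a −log10 q of 4.22 and the fasting list ran on below the threshold of 2, so the scales were not alike. When ranks were taken among the 95956 regions open in both states, an alternative chosen after the data were seen, the median difference was 1.90 points, and 54.5% of members and 47.8% of shared regions ranked higher in fasting tissue. Summits were placed alike: they lay within 25 bp of each other in 58.8% of members and 64.2% of shared regions.

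At the threshold the fasting q decided. The 3 weakest members had a fasting −log10 q of 2.001 (chr3:87541637-87541767), 2.007 (chr15:31989235-31989331) and 2.009 (chr3:101299653-101299913). The 3 regions just outside had 1.998 (chr10:8944380-8944475), 1.993 (chr12:39916541-39916855) and 1.989 (chr3:144687014-144687204). The fed ranks of the members in this group were 30.0, 6.01 and 63.8 and those of the regions outside were 6.00, 6.60 and 40.2, so the 2 sides overlapped in fed rank.

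Private did not mean remote from the open chromatin of other tissues. The median gap from the edge of a member to the nearest deposited peak of another tissue was 561 bp. For 65.5% of members the gap was at most 1000 bp, and for 64 members it exceeded 10000 bp. By tissue, the median gap was smallest to spleen peaks at 1897 bp and largest to kidney peaks at 4707 bp. Brown adipose removed the most candidates: 83.6% of the regions open in both white adipose states overlapped a brown adipose peak, and 5084 overlapped a brown adipose peak and no other tissue. The tissue next to it on that count was muscle, with 762.

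Members lay far from gene starts. The median distance from the fed summit to the nearest of 132629 annotated transcript starts was 11400 bp (95% interval 10658 to 12236), against 5647 bp for shared regions. Within 3000 bp of a start lay 644 members, or 20% (95% exact binomial interval 18.6 to 21.4), against 39.4% of shared regions (39.1 to 39.7). Within 1000 bp the shares were 7.87% and 27.6%. More than 50000 bp from any start lay 14.6% of members and 5.94% of shared regions. To a protein-coding start the median distance was 23507 bp for members and 9644 bp for shared regions. All these intervals cover counting error only, since regions of a library are not independent samples.

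The summit fell in an intron for 50.5% of members and between genes for 42.3%. Only 2.14% of members had their summit in an untranslated region, against 8.29% of shared regions, and 2.05% lay in coding exons. The difference in distance was found in weak and strong regions alike. Among regions of mean rank over 60, where shared regions were most often promoters, 19.8% of 703 members and 45% of shared regions lay within 3000 bp of a start. At mean ranks of at most 40 the shares were 20.4% and 31.2%.

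**Figure D2:**
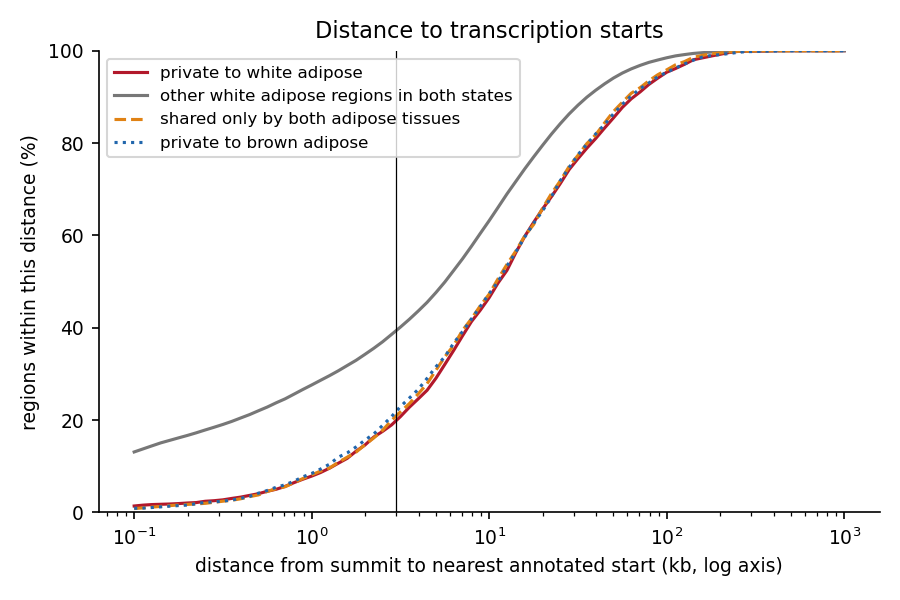
Cumulative share of regions (vertical axis, percent) by distance from summit to the nearest annotated start (horizontal axis, kb on a log scale), with a vertical line at 3 kb. The curves of regions private to white adipose, private to brown adipose and shared only by both adipose tissues nearly coincide, and all run below that of the other white adipose regions open in both states.

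Private regions of the other tissues, found by the same rule, sat at like distances. The share within 3000 bp of a start ran from 19.7% in lung to 23.2% in liver over the other 7 tissues, and the median distance from 9765 bp in spleen to 11595 bp in heart. The 5448 regions private to brown adipose had 21.8% within 3000 bp of a start. The 3451 regions that both adipose tissues held in both states, with no peak of the 6 remaining tissues, had 21.0%. The white adipose members lay within these ranges on both measures. They lay outside the ranges of the other private sets between genes, at 42.3% against 28.1% (muscle) to 40.7% (liver), and in introns, at 50.5% against 52.0% (liver) to 63.6% (muscle). The same held beyond 50000 bp from any start, at 14.6% against 9.0% (spleen) to 13.7% (brown adipose). By number, the 3227 members were fewer than the private regions of any other tissue but heart, which had 2763, while kidney had 22221.

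Few members lay at protein-coding starts: 167, or 5.18%, were within 1000 bp of the start of 162 genes. The strongest of these, named after their values were seen, lay in an intron of Cd320, the receptor for transcobalamin-bound vitamin B12. Its position was chr17:33844119-33844571, 906 bp from the start, and ranked 76.0 in fed and 90.5 in fasting tissue. The strongest within 100 bp lay at Slc17a9, which encodes a vesicular nucleotide transporter, at chr2:180737968-180738416 and 49 bp from the start, with ranks of 84.5 in fed and 81.9 in fasting tissue.

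The strongest member of all lay between genes at chr4:100692694-100693381, 83721 bp from Cachd1, which encodes a protein related to the auxiliary subunits of calcium channels. Its fold was 11.7 in fed and 11.1 in fasting tissue, from 199 and 104 summit tags, and it ranked 93.8 and 94.9. The nearest deposited peak of another tissue was 4057 bp away. Next by mean rank came a region at chr7:137506570-137507422, with fold of 11.3 in fed and 9.78 in fasting tissue, 69598 bp from Glrx3, a glutaredoxin gene. The following member at chr12:107440499-107441650 had fold of 12.5 and 10.4, was the widest of the 10 strongest at 1152 bp and held 5 summits. It lay 15155 bp from any peak of another tissue, the largest gap among the 10.

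The other 7 of the 10 strongest members had fed ranks of 89.7 to 92.6 and fasting ranks of 90.1 to 92.7. One at chr8:18791600-18792353 lay in an intron of Mcph1, 50318 bp from the start of Angpt2, which encodes a ligand of the vessel receptor TEK. Its fold was 11.5 in fed and 9.69 in fasting tissue. Another, at chr13:104959614-104960219, lay in an intron of Rgs7bp, a partner of regulators of G protein signalling, with fold of 11.6 in fed and 8.47 in fasting tissue. The remaining 5 were nearest to the coding starts of Kdm8, 4933425L06Rik, Gm7271, 2410131K14Rik and 4933415F23Rik, at 4848 to 174824 bp. Summits of all 10 lay within 27 bp of each other between the states.

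Members were loosely clustered. Another member lay within 25000 bp of 870 members, or 27.0% (25.4 to 28.5), within 10000 bp of 17.5% and within 100000 bp of 50%. Joined by gaps of at most 25000 bp, they formed 2357 single regions, 317 pairs, 51 triples, 16 groups of 4, and 3 longer chains. This share moves with the number of regions in a set, which is why the 92.6% among shared regions is not comparable. Among sets of like size, 32.1% of the 2763 heart private regions and 32.5% of the 3451 regions shared by the adipose tissues had such a neighbour.

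The longest chain held 8 members over 61.1 kb, at chr11:89343682-89404751, between Nog, which encodes the secreted BMP antagonist noggin, and Ankfn1. It took 8 of the 11 regions open there in both states, 6 of them between the genes and 2 in introns of Ankfn1. The strongest member, at chr11:89365865-89366468, ranked 80.5 in fed and 87.2 in fasting tissue, and a neighbour at chr11:89384058-89384485 ranked 81.8 and 79.5. The weakest in fed tissue ranked 3.2 there and 50.2 in fasting tissue. Strengths within the chain were thus far from uniform. BMP signals promote the commitment of adipocyte progenitors, and noggin binds and blocks BMP ligands.

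The chain of 6 lay before Cachd1 over 32.5 kb, at chr4:100660859-100693381, and held 6 of 8 regions open there in both states, all between genes. It ended in the strongest member of the set. Fed ranks ran from 6.21 to 93.8 and fasting ranks from 60.6 to 94.9. The chain of 5, at chr17:67705082-67715964, was the most compact at 10.9 kb. It lay in introns of Lama1, which encodes a laminin chain of basement membranes, 8034 to 18423 bp from the start, and took 5 of 6 regions open there. All 5 ranked higher in fasting tissue, at 54.3 to 75.3, than in fed tissue, at 16.4 to 63.6, and 2 of them shared a fasting region.

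The remaining 2 chains of the 5 named had 4 members each and were, of the 16 of that size, those of highest mean rank. In an intron of Lrrc4c, which encodes a ligand of netrin-G1 on neurons, 4 of 4 regions open in both states at chr2:97485501-97512281 were members. Their strongest ranked 71.4 in fed and 88.9 in fasting tissue. Near Gm7271, 4 of 4 regions at chr5:76443756-76481373 were members, all between genes, and the strongest ranked 89.7 and 92.7. At these 2 places no region open in both states was shared with another tissue.

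**Figure D3:**
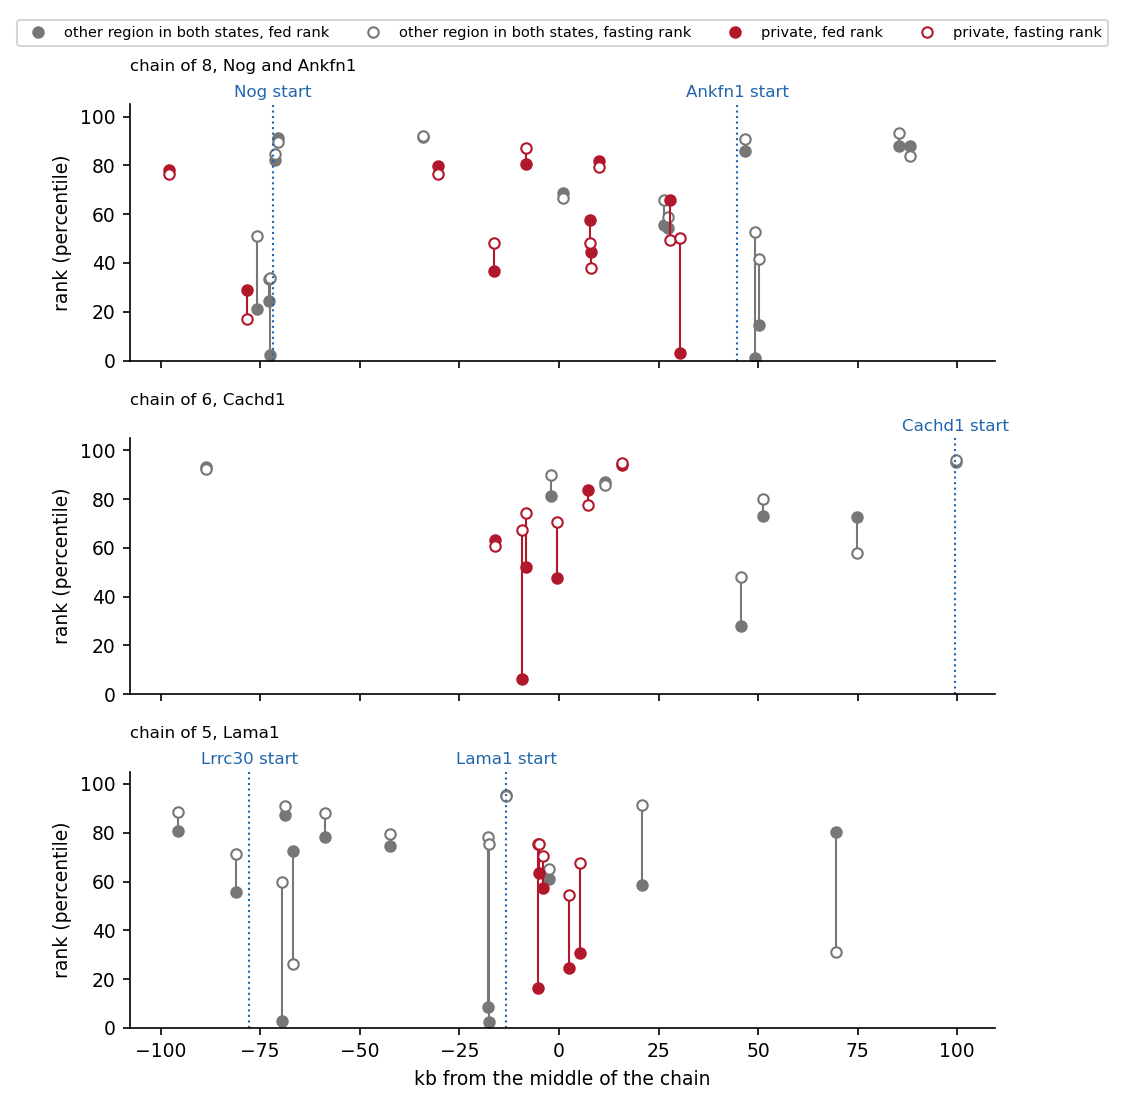
Regions open in both white adipose states around the 3 longest chains, by distance from the middle of the chain (horizontal axis, kb) and rank (vertical axis, percentile), with filled points for fed and open points for fasting rank and a bar joining them. Red marks members, grey marks shared regions and dotted lines mark 1 annotated start of each protein-coding gene. Members and grey regions are interspersed along the stretches shown.

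By nearest protein-coding start, members were linked to 2263 of 21911 genes, or 10.3%. Of these genes, 1669 had 1 member, 395 had 2 and 124 had 3. A start was within 100000 bp of a member for 5875 genes, or 26.8%. Nearness does not show which gene a region acts on, and long or isolated genes collect more regions, so the counts below stand beside all regions open in both states at the same gene.

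Slit3, which encodes a secreted ligand of ROBO receptors, was nearest to the most members. It had 14, all inside its introns, out of 68 regions open in both states (20.6%, where 3.36% of all such regions were members). The strongest, at chr11:35375169-35375767, ranked 67.2 in fed and 70.0 in fasting tissue. Bnc2, a zinc finger gene of mesenchymal cells, had 11 of 41, again all in introns, and the strongest at chr4:84361232-84361479 ranked 67.7 and 85.6. Tenm4, a teneurin of the cell surface, had 10 of 76. The members of Slit3 ranked up to 70.9 in fed and 88.6 in fasting tissue, and those of Bnc2 up to 67.7 and 85.6.

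Stronger members were found at other genes of the 10. Cachd1 had 9 of 32 regions. Utrn, a relative of dystrophin, had 8 of 53, and its strongest, with the summit in a coding exon at chr10:12713168-12713683, ranked 86.1 in fed and 86.4 in fasting tissue. Gnai1, which encodes an inhibitory G protein subunit, had 8 of 20. Its strongest member lay 196638 bp from the start at chr5:18163201-18163822 and differed between the states, with fold of 12 and rank of 92.5 in fed tissue against 5.09 and 74.8 in fasting tissue. Nek10, a kinase gene, had 7 of 17, of which 2 lay inside it. The strongest, ranking 84.9 in fed and 90.3 in fasting tissue, lay 134610 bp from the Nek10 start. Its summit fell in a noncoding exon, 31 bp from a start of Gm31517.

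Bmper, which encodes a secreted BMP-binding protein, had 8 members among 71 regions, with fed ranks of 6.33 to 78.0. Lrmda had 9 of 64 and Lrrc4c 7 of 14. Lrrc4c had the highest share of the 10 genes with most members at 50%, and Bmper the lowest at 11.3%. Since the 10 genes were chosen by their number of members, these shares are a description.

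Adipocyte list genes had many regions open in both states, and members made up close to the background share of them. Members were nearest to 7 of 25 genes (28.0%, beside 10.3% of all protein-coding genes), and 17 of 25 had a member within 100000 bp (68.0%, beside 26.8%). These genes were nearest to 334 regions open in both states, of which 12, or 3.59%, were members, beside 3.36% overall. The list was written with earlier results of these data known.

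Lep had 2 of these members. The stronger lay between genes at chr6:29086028-29086787, 21189 bp from a start, with fold of 6.08 and rank of 91.4 in fed tissue. In fasting tissue the fold was 3.04 and the rank 71.4, at a summit 4 bp away. The other, at chr6:28970555-28971202, ranked 75.2 in fed and 68.2 in fasting tissue. Both ranked higher in the fed list.

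Npr3, the clearance receptor for natriuretic peptides, had the most members of the list with 5 of 31 regions. The highest fed rank among them was 66.4, in a region at chr15:11837851-11838648 that ranked 27.0 in fasting tissue. A pair in its intron shared a fasting region, at 19.9 and 12.6 in fed tissue. Acsl1, which activates long-chain fatty acids, had 1 member at chr8:46419383-46419803 that ranked 65.9 in fed and 77.5 in fasting tissue. Cebpa, which encodes C/EBP alpha itself, had 1 at chr7:35091678-35091985, 27495 bp from the start, with ranks of 65.2 and 71.8. Adipoq, the adiponectin gene, had 1 at chr16:23160323-23160452 with ranks of 30.6 and 56.1. Retn, the resistin gene, had 1 with ranks of 20.7 and 27.4. Most genes of the list, Plin1, Fabp4, Pparg and Lipe among them, were nearest to no member. The same is true of most coding genes, since 28.0% of the list and 10.3% of all protein-coding genes were nearest to a member.

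When brown adipose was not used to remove regions, the members grew to 8311. Private regions of brown adipose were nearest to 14 of the 25 adipocyte genes (56.0%) and to 10 of 12 genes of the brown adipocyte list (83.3%), beside 14.7% of all coding genes. White adipose members were nearest to 2 of those 12 (16.7%, beside 10.3%), Ppargc1a and Lhx8. The Ppargc1a member lay 275348 bp from its start and ranked 28.9 in fed and 52.0 in fasting tissue.

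The other lists gave small numbers. Of 20 stromal and progenitor genes 6 had a member, 1 each, or 30.0% of the genes beside 10.3% of all coding genes. These lay among 247 regions open in both states, a share of 2.43% beside 3.36% overall. The strongest was in Pdgfrb, the receptor for platelet-derived growth factor on mural and progenitor cells, with ranks of 72.3 in fed and 73.9 in fasting tissue. Dpp4, a marker of interstitial progenitors, had 1 with ranks of 59.2 and 43.6. Dcn, the decorin gene, showed the widest gap between states in the list, with ranks of 6.93 and 73.3, and the Zfp423 member ranked 32.9 and 49.7.

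Of 15 mesothelium genes 2 had members (13.3%, beside 10.3% of all coding genes), 3 in all of 55 regions (5.45%, beside 3.36%). Wt1, a transcription factor of mesothelium, had 1 between genes at chr2:105188112-105188548 with ranks of 67.7 in fed and 74.8 in fasting tissue, and Efemp1, a matrix protein gene, had 2 of lower rank. Of 12 macrophage genes 3 had members (25%), 6 in all of 61 regions (9.84%), beside the same 10.3% and 3.36%. The 3 assigned to Timd4, a receptor of resident macrophages, lay in an intron of Sgcd at 194627 to 265364 bp, and the strongest ranked 72.8 and 88.7. Those of Marco, a scavenger receptor, and Itgax, an integrin, reached fed ranks of 77.0 and 28.9. The Itgax member lay inside the gene.

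Of 28 epididymis genes 4 had 1 member each, or 14.3% of the genes beside 10.3% of all coding genes. They lay among 41 regions open in both states, of which 9.76% were members, beside 3.36% overall. Defb21, a beta-defensin gene, had its only such region as a member at chr2:152574433-152574643, with ranks of 65.8 in fed and 22.8 in fasting tissue. The member nearest to Spink13 ranked 66.5 and 47.3. Lcn12, a lipocalin gene, ran the other way with 35.3 and 80.4. The Defb21 and Spink13 members ranked higher in the fed library, which carried the epididymis promoters. Of the remaining lists, testis and sperm genes had 1 of 15 with a member (Star, 6.67% of the list) and lymphocyte genes 1 of 10 (Il7r, 10%). Endothelial and mural genes had 1 of 13 (Kdr, 7.69%) and position and development factors 1 of 30 (Irx3, 3.33%), all beside 10.3%.

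The sequence under the summits was then examined, since the rule did not use it. Windows reaching 100 bp to each side of the fed summit were searched on both strands for 21 short motifs. C/EBP factors bind the palindrome-like letters TTGCNNAA, in which N is any base. They were present in 787 members, or 24.4% (95% exact binomial interval 22.9 to 25.9), against 12.8% of shared regions (12.6 to 13) and 13.2% of all regions open in both states. The share was 1.91 times that of shared regions.

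The C/EBP letters were commoner in stronger members. They were found in 20.8% of members with a mean rank of at most 40, 25.5% between 40 and 60 and 28.7% above 60, while shared regions of the same strength had 11.4%, 13.2% and 13%. At the very top no further rise was seen: the letters were in 29.6% of the 500 strongest members, 28.0% of the 100 strongest and 1 of the 10 strongest. Members were poorer in G and C, with a median of 46.3% in the window against 51.7%, so the shares were also taken within bands of base composition. Between 35% and 45% G and C the letters were in 29.7% of members and 22.4% of shared regions, between 45% and 55% in 21.8% and 14.5%, and between 55% and 65% in 11.1% and 7.19%. Away from starts, beyond 3000 bp, the shares were 24.7% and 15.2%. In each of the splits set against shared regions the share was higher in members.

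Among the private sets of the 8 tissues the C/EBP share in white adipose was the highest. It was 17.5% in brown adipose and 14.7% in liver, tissues in which C/EBP factors are also known to act, and 5.71% in spleen to 11.6% in lung in the rest. Regions shared only by both adipose tissues had 26.7%. In contrast, regions with no peak of another tissue that were seen in white adipose of only 1 state had lower shares, of 9.17% in the 15433 fed regions and 13.3% in the 12481 fasting regions.

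**Figure D4:**
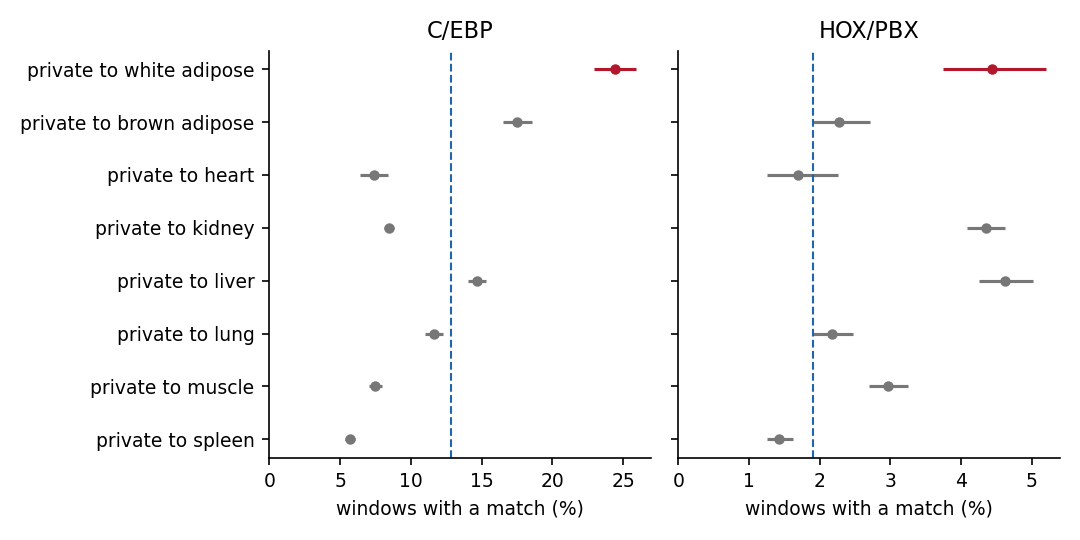
Share of windows with a match (horizontal axes, percent) in the regions private to each of the 8 tissues, for the C/EBP and HOX/PBX letters, with exact binomial 95% intervals that cover counting error only. The dashed line is the share in shared white adipose regions, and white adipose (red) has the highest value for C/EBP at 24.4% but not for HOX/PBX.

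The C/EBP letters were sparser at the summit itself. They lay within 20 bp of the summit in 3.75% of members, at 40 to 60 bp in 7.87% and at 60 to 80 bp in 5.86%. Shared regions had the same shape at a lower level, with 1.91%, 3.61% and 3.38%.

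**Figure D5:**
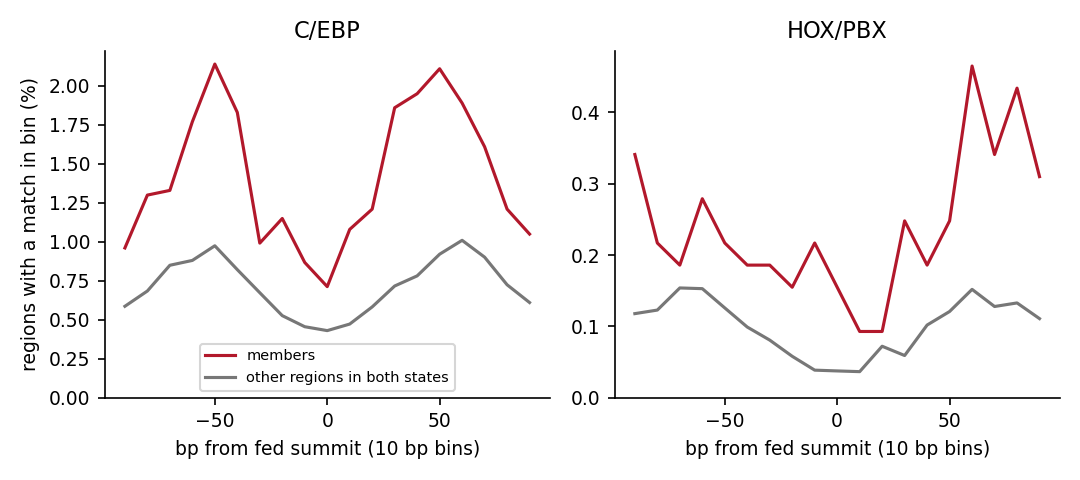
Share of regions with a match centred in each 10 bp bin (vertical axes, percent) by distance from the fed summit (horizontal axes, bp) for members (red) and shared regions (grey). The C/EBP curves dip at the summit and peak on both sides near 50 bp, and the HOX/PBX curve of members rests on 143 regions and is uneven.

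The next 4 windows, with C/EBP letters, come from the strongest members that hold a match within 75 bp of the fed summit. They were chosen after the values were seen, to show the letters in place. Strand, build and length are as above, capitals mark any of the 21 motifs, and names give the nearest protein-coding start.

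Capn13, chr17:73394977-73395127: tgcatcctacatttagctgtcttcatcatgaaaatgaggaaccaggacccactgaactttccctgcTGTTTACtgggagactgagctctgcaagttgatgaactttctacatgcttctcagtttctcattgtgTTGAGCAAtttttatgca
Galntl6, chr8:58853582-58853732: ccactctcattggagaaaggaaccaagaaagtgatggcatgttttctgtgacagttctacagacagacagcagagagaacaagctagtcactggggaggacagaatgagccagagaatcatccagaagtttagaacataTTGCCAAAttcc
Gcfc2, chr6:81581476-81581626: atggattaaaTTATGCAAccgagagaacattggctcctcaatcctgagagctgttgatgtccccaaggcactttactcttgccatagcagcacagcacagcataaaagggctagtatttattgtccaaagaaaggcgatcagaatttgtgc
Cnpy1, chr5:28261042-28261192: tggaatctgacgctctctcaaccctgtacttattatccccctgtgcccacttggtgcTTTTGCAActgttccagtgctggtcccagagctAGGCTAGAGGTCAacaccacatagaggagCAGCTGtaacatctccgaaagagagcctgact

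The C/EBP match lay 62 bp after the summit in the Capn13 window, 68 bp after it in the Galntl6 window, 62 bp before it in the Gcfc2 window and 14 bp before it in the Cnpy1 window. The Capn13 member, in an intron 4244 bp from a start, ranked 87.9 in fed and 93.2 in fasting tissue, and its window also held the forkhead letters TGTTTAC 6 bp before the summit. In the Cnpy1 window a pair of AGGTCA copies with 1 base between and at most 2 mismatches, the DR1 element bound by PPARG with RXR, was centred 21 bp after the summit. The DR1 shares of members and shared regions lay close together, at 4.0% (3.35 to 4.73) and 3.77%.

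The composite letters of HOX with PBX, TGATTNAT, were in 4.43% of members (3.75 to 5.20) and 1.90% of shared regions. This motif was as frequent in kidney (4.35%) and liver (4.62%) private regions. Beyond 3000 bp from a start the shares were 4.80% in members and 2.31% in shared regions, and within 45% to 55% G and C they were 3.04% and 2.05%. The 2 strongest members with these letters near the summit follow, again chosen after the values were seen.

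Ccnd2, chr6:127298257-127298407: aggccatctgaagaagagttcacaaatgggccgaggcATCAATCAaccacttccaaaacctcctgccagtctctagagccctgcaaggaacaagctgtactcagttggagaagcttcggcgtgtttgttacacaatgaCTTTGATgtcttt
Ctnna2, chr6:77093541-77093691: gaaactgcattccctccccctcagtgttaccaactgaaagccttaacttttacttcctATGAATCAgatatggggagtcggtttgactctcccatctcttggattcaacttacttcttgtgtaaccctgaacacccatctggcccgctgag

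In the Ccnd2 window the HOX with PBX letters lay 34 bp before the summit. The HOX with PBX match of the Ctnna2 window overlapped a match of the AP-1 letters TGANTCA, so they are not independent there.

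Other motifs separated members from shared regions less, or in the opposite direction. AP-1 letters were in 10.8% of members and 8.35% of shared regions, the GATA letters AGATAA in 9.82% and 6.26%, and the TEAD letters CATTCCA in 5.11% and 3.58%. Lower in members were the KLF and SP letters GGGCGG with 3.59% against 16.9%, a part of the CTCF motif, GGNGGCAG, with 5.24% against 10.7%, and the EBF letters CCCNNGGG with 6.63% against 9.92%. EBF letters were in 12.4% of the regions shared only by both adipose tissues. Of the motifs searched for blood cells, PU.1 letters GAGGAAGT were in 1.49% of members and 2.62% of shared regions. Within 45% to 55% G and C the KLF and SP shares were 4.13% and 5.77% and the EBF shares 7.68% and 8.02%. In the same band the AP-1 shares were 10.8% and 9.80%, the GATA shares 8.03% and 7.05% and the TEAD shares 4.93% and 4.24%. These gaps were smaller than without the band, and between 55% and 65% the AP-1 shares were 6.28% and 6.96%. A match is a match of letters and does not show binding.

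C/EBP letters occurred together with AP-1 letters in 89 members, or 2.76%, against 1.11% of shared regions. With EBF letters the shares were 1.49% and 1.03%, and with DR1 0.868% and 0.487%. C/EBP letters by themselves were in 24.4% of members and 12.8% of shared regions, and AP-1 letters in 10.8% and 8.35%. Whether the pairs met more often than these single shares give was not tested. Repeats covered a median of 9.45% of the window in members and 1.49% in shared regions, and over 50% of it in 3.87% and 2.35%. The mean number of CG dinucleotides in the window was 2.30 in members and 5.75 in shared regions. Private regions of the other tissues had 2.14 to 2.62.

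Members were found on every autosome and on the X chromosome, with none on Y. Their share of the regions open in both states ran from 2.69% on chromosome 7 to 4.07% on chromosome 6, and it was 4.04% on X.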

How the data were processed

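ATAC-seq peak lists of 16 pooled libraries were analysed, 1 per tissue and state. Per the labels and the study's methods, the authors aligned reads to GRCm38 with Bowtie2, removed duplicate and mitochondrial reads, shifted ends for Tn5, called peaks with MACS2 on each library and kept the rows of smallest p up to a fixed list length, with blacklisted intervals left out; versions are not given in the sources used here. Fold enrichment, as deposited, is the ratio of summit tags to expected tags, each plus 1. Significance was deposited as −log10 p with −log10 q beside it. None is scaled between libraries, so these values were used only within a list. Offsets in the deposited lists place the summits.

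Rows of the same interval (several summits) were merged into 1 region with its smallest p, and ranks are percentiles by p. Members are the regions described above. The members and gene lists were chosen with earlier results of these data known. Depth is not stated; fold and p together give the tags at a summit, which came out whole within 0.001 for 98.2% to 100% of regions per library, and background tags of 2.80 to 12.8 scale with depth. Starts and gene models were those of GENCODE vM21 (21911 protein-coding genes), and all lists ended inside the GRCm38 chromosome lengths. List symbols were matched to GENCODE, 1 of them (Eva1, as Mpzl2) through a synonym. Lpl stands in both the adipocyte and macrophage lists, and Cidea and Ebf2 in 2 lists each.

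Sequence was read from RefSeq GRCm38. Motifs were matched exactly on both strands, except the spaced pair of the DR1 element (at most 2 mismatches), and matches could overlap. Intervals for shares are exact binomial (Clopper-Pearson, 95%) and those for medians come from order statistics. With 1 library per group no test was made. Named were the 10 members of highest mean rank, the 5 chains with most members (ties by mean rank), the 3 members and regions nearest the q threshold, the 10 genes nearest to most members, and list genes with a member (up to 4 in the smaller lists); some items under this rule are not reported here, and other names are said to be chosen after their values were seen. Alternatives covered thresholds, overlap, gap, anchor state, autosomes, leaving out each tissue, starts, windows and ranks. Interval, motif and tag functions were tested on simulated data. Python 3.11.15, numpy 2.4.6, pandas 2.3.3, scipy 1.17.1, samtools 1.23.1 and bedtools 2.31.1 were used.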

Additional observations from a re-analysis of the deposited data

How the results depend on the processing

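No paired analysis was possible because each tissue and state had 1 library. Of 124 values computed under alternatives, 76 stayed within 1.5 times (counts) or within the interval of the value reported, and 48 moved. Only the 16 rank differences could change sign, and none did. All except the ranks among regions open in both states were taken within whole lists, which end at unlike q. A kept sign therefore does not show a difference between the states. Asking for a −log10 q of at least 6 in both lists left 1298 members, 4 adipocyte and 1 epididymis list genes, 16.1% with a neighbour and a rank difference of 20.8. Asking for no peak of another tissue within 1000 bp left 1113 members, 2 adipocyte and 1 epididymis list genes, 13.6% within 3000 bp of a start, a median distance of 14846 bp, 18.4% with a neighbour and a rank difference of 15.8. Every deposited white adipose peak gave 7 epididymis list genes and a rank difference of 12.9. Overlap by 50% of both lengths gave 2 epididymis list genes and 19.5% with a neighbour. Regions from the fasting list gave a rank difference of 11.8 and 30.4% with a neighbour, and removal only by peaks with q under 0.01 gave 28.5% with a neighbour. Protein-coding starts gave 13.6% within 3000 bp and 23507 bp, a 1000 bp window 7.87%, and neighbours within 10000 and 100000 bp 17.5% and 50%. Ranks by fold gave a difference of 13.1, and linking by 100000 bp gave 17 adipocyte and 9 epididymis list genes. Leaving out each other tissue in turn gave 3538 to 8311 members, 7 to 17 adipocyte and 4 to 5 epididymis list genes, 27.7% to 46.4% with a neighbour, 20% to 20.7% near a start, 11000 to 11437 bp, and rank differences of 15.9 to 17.8. The highest values for members (8311), adipocyte genes (17) and neighbours (46.4%) came without brown adipose, and over the other 6 tissues the highest were 3989, 9 and 29.4%. Counts of list genes move with the number of regions, and the share of all coding genes was not computed for these sets of changed size.

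Chosen after the data were seen, the fasting list alone gave 16059 regions, 11 adipocyte and 8 epididymis list genes, 12802 bp and 47.2% with a neighbour. The fed list alone gave 19086 regions, 12 and 21 list genes and 58.9%. Larger sets are nearest to more genes of any kind. Of all coding genes, 30.7% were nearest to the 15433 regions of fed tissue alone and 27.1% to the 12481 of fasting tissue alone. The share was 10.3% for members and was not computed for the 2 whole lists. Ranks among regions open in both states gave a difference of 1.90. The C/EBP share of members was 24.1% around the fasting summit (13.3% in shared regions), 11.7% within 50 bp of the summit (5.65%), 28.6% at a −log10 q of at least 6 (13.4%), 28.0% with no other peak within 1000 bp and 22.8% for regions from the fasting list. The 14 lists that remove regions differ in depth and length, and a weak region of another tissue below its list's end cannot be seen, so private means not listed rather than closed.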
